A study of Mus musculus with 10 samples.

Results

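In skeletal muscle of fed mice, 3342 promoter peaks of the repressive histone mark H3K9me2 carried no peak of the glucocorticoid receptor (GR) or of the histone demethylase LSD1. These peaks, called free peaks here, were selected on the peak calls themselves. The midpoint of an H3K9me2 fed peak had to lie from 1000 bp upstream to 100 bp downstream of the transcription start site (TSS) of a RefSeq transcript. No base of it could be shared with any peak of the GR fed, GR starved, LSD1 fed or LSD1 starved lists. Of 171402 H3K9me2 fed peaks, 6037 lay at a promoter (3.52%), and the free peaks were 55.4% of these (95% exact binomial interval 54.1 to 56.6%). The other 2695 promoter peaks, called touched peaks, shared at least 1 base with GR or LSD1. All intervals cover counting error alone, and neighbouring peaks are not independent.

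The series profiled chromatin of skeletal muscle from C57BL/6J mice, with no other genotype in the labels, by ChIP-seq, an assay in which DNA bound by an antibody's target is sequenced. Mice were fed or had been starved for 24 h, and GR, LSD1, H3K9me1 and H3K9me2 were each immunoprecipitated in both conditions beside an input. The labels give an age of 10 weeks where the study's text gives another one for wild-type animals, the study worked with male mice, and whether a library pools animals was not given in the sources used here. Each group had 1 library, so no difference between fed and starved muscle could be tested and none is claimed. For both H3K9 marks the fed library carries 1 run code and the starved library another, so condition and code cannot be told apart. The tissue label was checked on the promoters of 12 muscle fibre genes, such as the skeletal actin gene Acta1, the creatine kinase gene Ckm and the fast troponin gene Tnni2. GR or LSD1 peaks lay at 8 of these 12 promoters and at 4 of 14 promoters of other cells' marker genes, beside 40.9% of all annotated genes. That share lies within the intervals of both lists (34.9 to 90.1% and 8.39 to 58.1%), so these counts alone do not separate muscle from other genes.

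Dimethylation of lysine 9 on histone H3 is deposited mainly by the methyltransferases G9a and GLP and marks silenced genes in facultative heterochromatin. LSD1 removes methyl groups from H3K9me1 and H3K9me2 when partnered with nuclear receptors, and from H3K4 in co-repressor complexes. GR is the hormone receptor through which cortisol-like steroids act on muscle genes during fasting. A promoter that carries H3K9me2 and neither protein is one at which the mark was called without a called peak of this enzyme.

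The free peaks ran from CpG-rich to CpG-poor DNA, as the sequences of some strong ones show. Each is printed 5′ to 3′ on the strand of the gene, from the RefSeq genome sequence of build GRCm38 (mm10), with CpG dinucleotides in capitals. All lie upstream of the TSS and outside annotated exons. The 4 of highest fold enrichment in CpG-rich sequence were short.
Lyplal1, chr1:186117335-186117385, minus strand: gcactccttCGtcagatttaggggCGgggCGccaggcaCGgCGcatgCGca
Klhl8, chr5:103911322-103911371, minus strand: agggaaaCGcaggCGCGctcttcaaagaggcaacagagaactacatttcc
Cdh22, chr2:165234785-165234834, minus strand: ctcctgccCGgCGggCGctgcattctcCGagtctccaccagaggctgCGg
Rad51ap2, chr12:11455770-11455820, plus strand: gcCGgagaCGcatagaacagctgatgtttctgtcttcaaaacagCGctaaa

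Of the 4 eligible peaks of highest fold enrichment outside CpG-rich sequence, 3 are shown, which held no CpG dinucleotide. The remaining one, at Npm2, was the highest of the 4 (5.43) and held 6 CpG dinucleotides. Stronger free peaks outside CpG-rich sequence, such as that at Gm24105 (5.78), were not eligible.
Dgcr6, chr16:18065399-18065451, plus strand: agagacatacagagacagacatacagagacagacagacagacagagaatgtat
Gm16638, chr7:83632631-83632680, minus strand: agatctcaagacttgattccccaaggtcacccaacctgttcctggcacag
Nrn1l, chr8:105893372-105893421, plus strand: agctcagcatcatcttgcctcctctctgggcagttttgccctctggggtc

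Kidins220 is shown because its free peak was the only one that an H3K9me2 starved peak overlapped, and it was added after its values were seen.
Kidins220, chr12:24974164-24974287, plus strand: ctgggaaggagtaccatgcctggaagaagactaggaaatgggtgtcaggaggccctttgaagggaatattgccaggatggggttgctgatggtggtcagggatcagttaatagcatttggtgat

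The Lyplal1 peak, centred 50 bp upstream of a lysophospholipase-like gene, had 6 CpG dinucleotides in 51 bp and a fold enrichment over input of 5.08. It contained both the GC box letters GGGCGG and the palindromic NRF1 letters GCGCATGCGC, and the nearest GR or LSD1 peak was 5.21 kb away. The Rad51ap2 peak, centred 260 bp upstream of the TSS, lay 72.0 kb from GR and LSD1. The Cdh22 peak, at a cadherin gene, lay 33.9 kb from them. By contrast the Dgcr6 peak was a purine-rich simple repeat, of which 98.1% of bases were repeat-masked in the reference, and the Nrn1l peak was free by a gap of 12 bp only.

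CpG content set the free peaks apart from the touched ones. In the 500 bp around the midpoint, the observed over expected CpG ratio had a median of 0.370 for free peaks and 0.761 for touched peaks, against 0.166 for all H3K9me2 fed peaks on chromosomes 1 to 19, X and Y. GC content followed the same order, with medians of 49.0%, 61% and 42.6%. With CpG-rich defined as a GC content of at least 55% and a ratio of at least 0.65, 511 free peaks were CpG-rich (15.3%, 14.1 to 16.6%), against 1663 touched peaks (61.7%, 59.8 to 63.5%) and 2.07% of all H3K9me2 fed peaks. With only GR and LSD1 peaks of q of at most 0.01 counted, 24.5% of free peaks were CpG-rich (23.2 to 25.8%). Read the other way, free peaks made up 23.5% of the CpG-rich promoter peaks (21.7 to 25.3%) and 73.3% of the remaining ones (71.9 to 74.7%). CpG content was not itself a criterion of the rule. The rule did sort promoter peaks by GR and LSD1, and the paper describes most promoters occupied by both as rich in G and C. The CpG difference is therefore not independent of the rule and is given as a description. It was present at every peak length examined. Among peaks of up to 60 bp, 13.9% of free and 59.5% of touched peaks were CpG-rich, and among those of 201 to 400 bp the shares were 15.2% and 62.7%.

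**Figure D1:**
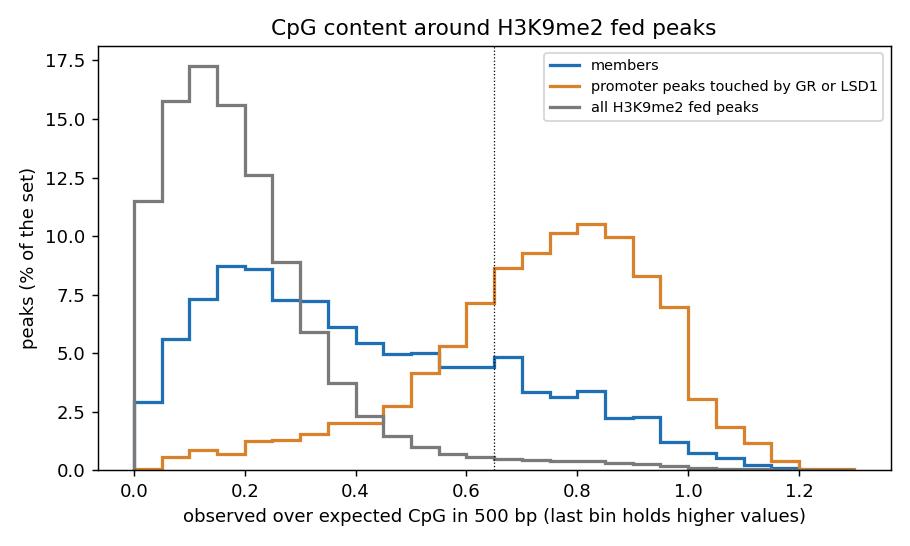
Observed over expected CpG ratio in the 500 bp around the peak midpoint (x axis, no unit) against the percentage of each set (y axis), for free peaks, promoter peaks touched by GR or LSD1, and all H3K9me2 fed peaks. The free peaks (median 0.370) lie between all peaks (0.166) and touched peaks (0.761). The dotted line marks the limit of 0.65.

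Free peaks lay farther from the TSS than touched ones, and the difference in CpG content was present both near the start site and far from it. From 300 bp upstream to the end of the window, 30.7% of 1223 free peaks (28.1 to 33.3%) and 70.9% of 2072 touched peaks (68.9 to 72.9%) were CpG-rich. More than 500 bp upstream, the shares were 4.63% of 1534 free peaks and 26.5% of 294 touched peaks. Interspersed and simple repeats went the other way. At least 50% of the bases were repeat-masked in 11% of free peaks (10.0 to 12.2%), 2.19% of touched peaks (1.67 to 2.81%) and 23.7% of all H3K9me2 fed peaks.

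Promoter letters counted in 300 bp around the midpoint, on both strands, differed accordingly. The GC box GGGCGG, the core of Sp1 sites, was present at 23.0% of free peaks (21.5 to 24.4%) and 64.1% of touched peaks (62.3 to 65.9%), against 35.7% of 32851 RefSeq promoters of the same length. The ETS letters CCGGAAG were present at 4.76% of free and 16.6% of touched peaks, against 8.86% of those promoters. The TATA box TATAAA showed the opposite order, at 14.8% of free peaks (13.6 to 16.0%) and 5.12% of touched peaks (4.32 to 6.02%), against 13.6%. Near the TSS, from 300 bp upstream, the TATA letters were still found at 10.3% of free and 4.30% of touched peaks, and the GC box at 42.2% and 70.7%. The ETS letters were there at 8.83% and 19.4%. For these free peaks the GC box share was above that of RefSeq promoters, the ETS share near it and the TATA share below it. The lower GC box and ETS shares of all free peaks include the 45.9% that lay more than 500 bp upstream. The CCAAT letters were at 34.2% and 37.8%, a smaller difference.

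The letters of NRF1, a factor of housekeeping promoters, and of GR were rare throughout. None of the motifs searched contains another. The NRF1 letters GCGCATGCGC occurred at 14 free peaks (0.419%, 0.229 to 0.702%), 33 touched peaks (1.22%, 0.844 to 1.72%) and 0.971% of RefSeq promoters. From 300 bp upstream they occurred at 0.981% of free peaks (0.508 to 1.71%) and 1.40% of touched peaks (0.939 to 2.00%). The palindromic glucocorticoid response element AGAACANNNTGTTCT with at most 1 mismatch occurred at 6 free peaks (0.180%, 0.0659 to 0.390%), 3 touched peaks (0.111%, 0.0230 to 0.325%) and 0.164% of RefSeq promoters, so the intervals of free and touched peaks overlapped. The CRE letters TGACGTCA were at 0.868% of free and 2.86% of touched peaks, and the E-box letters CACGTG at 5.36% and 10.2%. A match is a description of the sequence and not a bound site.

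Along the promoter, the number of free peaks was flat and that of touched peaks was not. Free peaks numbered 285 to 325 in each 100 bp of the window. Touched peaks rose from 42 in the farthest upstream 100 bp to 648 in the last 100 bp before the TSS. As a result, 36.6% of free peaks (35.0 to 38.3%) and 76.9% of touched peaks (75.2 to 78.5%) had their midpoint between 300 bp upstream and 100 bp downstream. More than 500 bp upstream lay 45.9% of free and 10.9% of touched peaks.

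**Figure D2:**
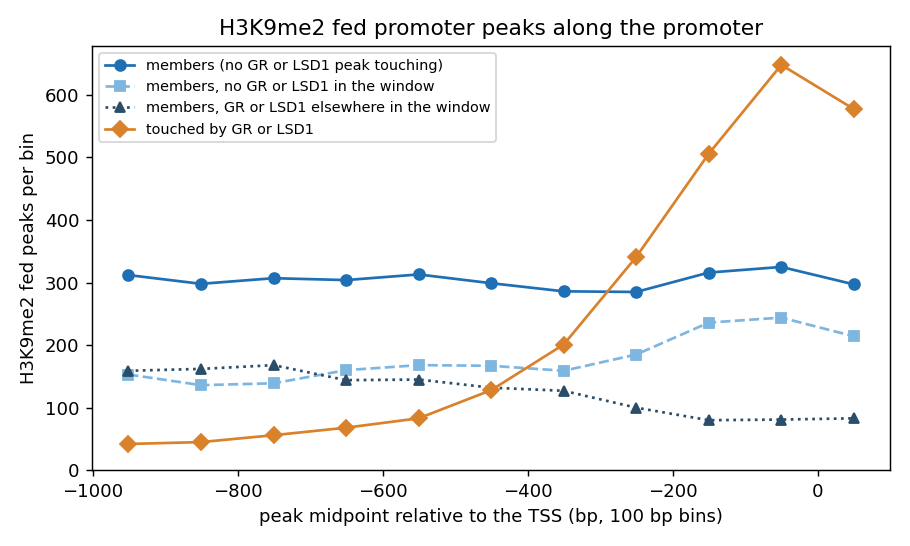
Number of H3K9me2 fed peaks per 100 bp (y axis) by the position of their midpoint relative to the TSS in bp (x axis). Free peaks stay at 285 to 325 per bin, those in windows without GR or LSD1 rise toward the TSS, those with GR or LSD1 elsewhere in the window fall, and touched peaks reach 648.

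The flat line was the sum of 2 sets with opposite slopes. For 1961 free peaks no GR or LSD1 peak lay anywhere in the promoter window, and for 1381 (41.3%, 39.6 to 43.0%) a GR or LSD1 peak lay elsewhere in the same window. That share counts peaks, from which the rule has taken the touched ones, and has no background of its own here. Counted by gene, 1516 of the 3261 genes with a free peak had GR or LSD1 in a window. Among all annotated genes it was 10715 of 26180 (40.9%). Free peaks of the first set rose from 153 in the farthest 100 bp to 244 just before the TSS. Those of the second set fell from 159 to 81. In this second set the nearest GR or LSD1 peak of the window lay downstream of the H3K9me2 peak in 1159 of 1381 cases (83.9%, 81.9 to 85.8%) and covered the TSS in 729 cases (52.8%). The median midpoint was 570 bp upstream for these free peaks and 77 bp upstream for the GR or LSD1 peak beside them. The fall toward the TSS and these positions are bound up with the rule, which bars overlap with GR or LSD1. The window also reaches 1000 bp upstream but only 100 bp downstream. GR starved peaks lay in the window of 27.5% of all free peaks, LSD1 fed peaks of 24.7%, LSD1 starved peaks of 16.6% and GR fed peaks of 13.4%. These lists differ in size, with 37783, 16616, 66332 and 14108 peaks. The share of all genes was not computed for each list, so the shares per list have no background here. The deposited LSD1 starved list is far longer than the one the study's text describes, and 10.2% of its peaks reach a q-value of at most 0.01. Without that list 3459 peaks were free, 38.0% of them with GR or LSD1 elsewhere in the window. When only GR and LSD1 peaks with q of at most 0.01 were counted, 4356 peaks were free and 22.3% (21.1 to 23.6%) had GR or LSD1 elsewhere in the window.

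All H3K9me2 fed peaks, free or not, were then counted around 31603 distinct TSS positions within 5 kb. At the 19049 positions without GR or LSD1 in the promoter window, the density was 67.6 to 83.6 peaks per kb per 1000 TSS beyond 2 kb and 137 in the 250 bp before the TSS, 1.82 times the flank median of 75.2. At the 12554 positions with GR or LSD1 in the window, the flanks held 92.1 to 132 and the last 250 bp held 594, 5.51 times the flank median of 108. Thus H3K9me2 fed peaks gathered at the TSS in both kinds of promoter, and less so in those without GR and LSD1.

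**Figure D3:**
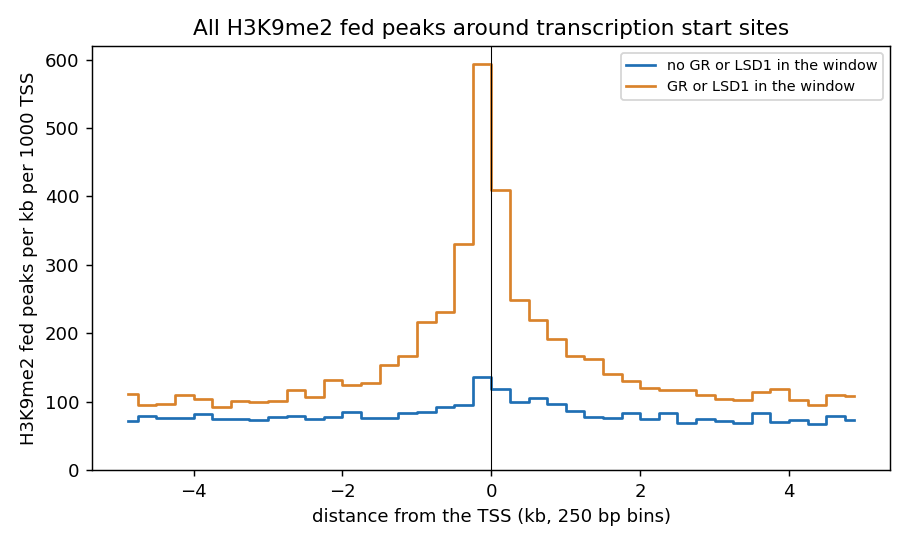
Density of H3K9me2 fed peak midpoints (y axis, peaks per kb per 1000 TSS) by distance from the TSS in kb (x axis, 250 bp bins), for TSS positions with and without a GR or LSD1 peak in the promoter window. The density just before the TSS is 594 with and 137 without such a peak.

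Distances to GR and LSD1 ranged over several orders of magnitude. The median gap from a free peak to the nearest GR or LSD1 peak was 1224 bp, with quartiles of 305 and 8598 bp. It was 254 bp where the window held GR or LSD1 and 6494 bp where it did not. Within 100 bp lay 324 free peaks (9.69%), within 500 bp 1168 (34.9%) and within 1000 bp 1595 (47.7%), and 757 (22.7%) were more than 10 kb away.

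**Figure D4:**
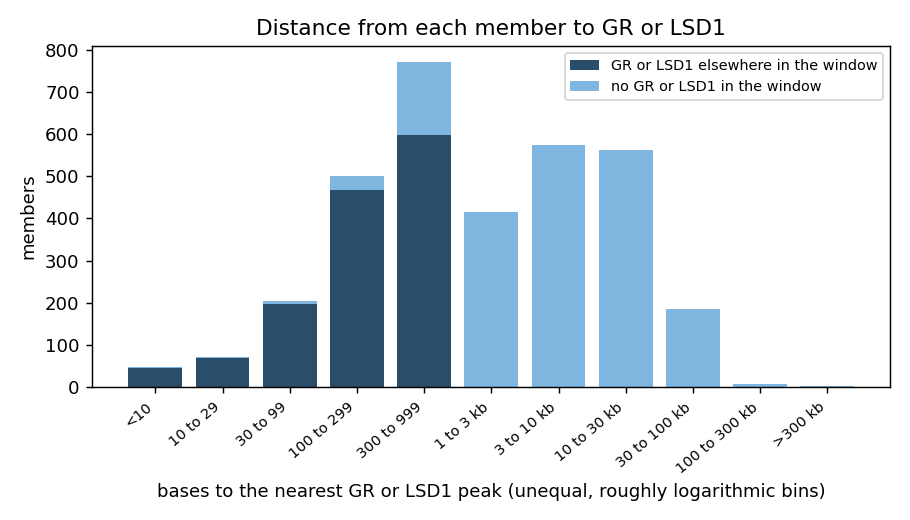
Free peaks (y axis, number) by the bases to the nearest GR or LSD1 peak (x axis, unequal bins), split by whether the promoter window holds GR or LSD1. The medians of the 2 sets are 254 and 6494 bp.

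At the limit of the rule, 6 free peaks touched a GR or LSD1 peak end to end and 53 had a gap of at most 10 bp, while 59 touched peaks shared at most 10 bp. Just inside stood the peaks at Ccdc88c, Tax1bp1, Resf1, 4732490B19Rik and A430018G15Rik, with a gap of 0 bp. Just outside stood those at Wrap53, Cipc, Gm15941, Sod1 and Serinc4, with 1 shared bp. The window itself ended between Snora47 and Slc25a23 (1000 bp upstream, inside) and Ap5s1 and Cfap97 (1001 bp upstream, outside), and between Strbp and Gm9564 (100 bp downstream, inside) and Stx5a and Itpa (1 bp farther, outside).

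The deposited peak values of the free set were low and close together, and they are given as a description because the calls chose the set. Fold enrichment over input had a median of 3.28 and ran from 2.30 to 5.78, beside a median of 3.24 for touched peaks and 3.33 for all H3K9me2 fed peaks. The q-value had a median of 0.0302, and 934 free peaks (27.9%) shared 1 value, 0.0517. A q of at most 0.01 was reached by 687 free peaks (20.6%), 24.7% of touched peaks and 20.9% of all. The median length was 112 bp for free and 169 bp for touched peaks, and 29.6% of free peaks were 50 bp long, the minimum of the H3K9me2 fed list. The share of promoter peaks that were free fell with length, from 71.4% at up to 60 bp to 22.3% above 400 bp, and a longer peak has more bases that can meet another.

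The highest fold enrichment among free peaks was found at Gm24105 (5.78, q = 2.24e-07), Sh3bgrl3 (5.50), the oocyte histone chaperone gene Npm2 (5.43), D130040H23Rik and Zfp950 (both 5.27) and Dgcr6 (5.18). At Npm2 the nearest peaks were 839 bp away for GR fed, 5447 bp for GR starved, 688 bp for LSD1 fed and 5282 bp for LSD1 starved. At Dgcr6, a gene of the DiGeorge region, all 4 lists had a peak within 662 to 884 bp. At D130040H23Rik the nearest lay 33.3 kb away. The lowest q-value, 5.92e-15, belonged to a 254 bp peak 674 bp upstream of Crebzf, a bZIP factor gene, and is named here after its value was seen. The longest free peaks were those at Hoxb9 (832 bp), A630089N07Rik (750 bp), the kinase gene Pak4 (692 bp) and the polarity kinase gene Mark2 (688 bp), and all 4 lay in windows without GR or LSD1.

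In genomic terms, 62.4% of the free peaks had their midpoint in intergenic sequence, 23.3% in an intron and 14.2% in an exon, where genes other than the one whose TSS was used also count. The nearest TSS was protein-coding for 85.6% of free peaks (84.4 to 86.8%) and 92.2% of touched peaks (91.1 to 93.2%). Long non-coding RNA starts were nearest for 8.71% and 5.34%, and microRNA starts for 3.26% and 0.519%. Windows of more than 1 gene, such as divergent promoters, held 3.74% of free peaks (3.12 to 4.44%) and 13.5% of touched peaks (12.3 to 14.9%).

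The free peaks belonged to 3261 of 26180 annotated genes, 12.5% of all, and those in windows without GR or LSD1 to 1886 genes, 7.2%. These shares are the background for the gene groups below, which were described by counts alone. A touched peak as well as a free one was present in 333 genes. Most genes, 3071, had 1 free peak, 173 had 2 and 17 had 3. Among these 17 were Pdgfra, the PDGF receptor gene of fibro-adipogenic cells, Ocln, the tight junction gene occludin, and Abr, a regulator of small GTPases. At Pdgfra the 3 peaks lay 920, 510 and 150 bp upstream of annotated starts, with fold enrichments of 3.36, 3.15 and 3.20, and its windows held no GR or LSD1. The 3 peaks of Abr served 3 separate start sites.

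**Figure D5:**
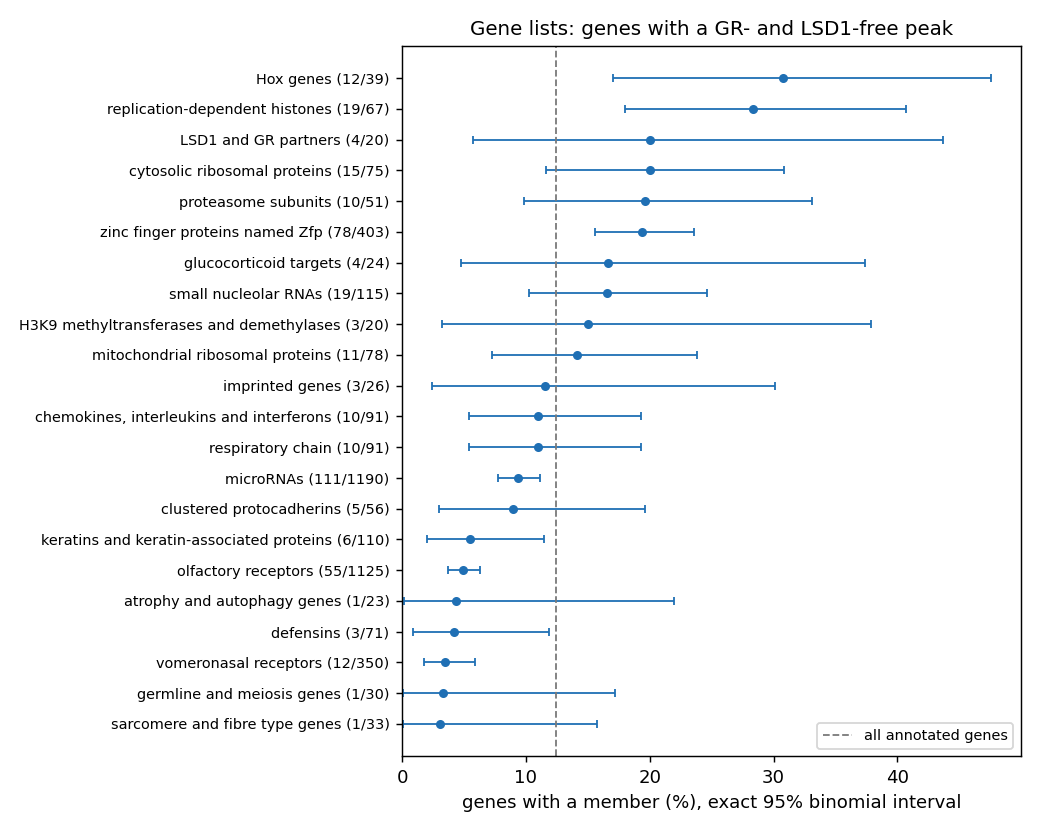
Percentage of the annotated genes of each list with a free peak (x axis, points, with 95% exact binomial intervals) for lists of at least 20 genes (y axis, with the counts). The dashed line is the share of all annotated genes, 12.5%, and Hox genes stand at 30.8% and olfactory receptors at 4.89%.

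Homeobox genes of the Hox clusters, which pattern the body axis of the embryo, had a free peak at 12 of 39 genes (30.8%, 17.0 to 47.6%). For all 12 the window of the peak held neither GR nor LSD1, and none of the 39 genes had a touched peak, beside 11.2% of all annotated genes. By cluster the counts were 6 of 10 Hoxb, 3 of 11 Hoxa, 3 of 9 Hoxd and 0 of 9 Hoxc genes. The 13 peaks had fold enrichments from 3.25 to 4.98, a median CpG ratio of 0.556 and a median gap of 10.0 kb to GR or LSD1. Hoxb7 led the group, with a fold enrichment of 4.98 (q = 4.07e-05) at 258 bp upstream. Its nearest peak was LSD1 starved at 17384 bp, with GR starved at 66854 bp. Hoxb5 followed with 4.32 at 778 bp upstream, Hoxd9 with 4.13 at 550 bp upstream and Hoxd8 with 3.88 at 18 bp downstream.

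Replication-dependent histone genes, most of which are transcribed in S phase, had a free peak at 19 of 67 genes (28.4%, 18 to 40.7%), 17 of them in the cluster on chromosome 13. Since facing H2A and H2B genes share a promoter, the 19 genes rested on 16 distinct peaks. GR or LSD1 lay in a window of 46 of the 67 genes, beside 40.9% of all annotated genes, and the peak's own window was without them for 9 of the 19. The highest fold enrichments were 4.41 at H3c3, 179 bp upstream, and 3.88 between H2ac8 and H2bc8.

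Zinc finger genes named Zfp, many of them KRAB repressors that recruit H3K9 methyltransferases through KAP1, had a free peak at 78 of 403 genes (19.4%, 15.6 to 23.6%). A touched peak was present at 67 (16.6%, 13.1 to 20.6%), beside 11.2% of all annotated genes. The peak's window was without GR or LSD1 for 38 of the 78. The values led with Zfp950 (5.27), Zfp202 (4.97), Zfp629 (4.79) and Zfp691 (4.66).

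Olfactory and vomeronasal receptor genes, silent outside sensory neurons, stood below the background. A free peak was present at 55 of 1125 olfactory receptor genes (4.89%, 3.70 to 6.32%) and 12 of 350 vomeronasal receptor genes (3.43%, 1.78 to 5.91%). Neither list had a touched peak (exact upper limits 0.327% and 1.05%), beside 11.2% of all annotated genes. GR or LSD1 lay in a window of 18 and 8 of these genes (1.60% and 2.29%), below the 40.9% of all genes. The receptor peaks lay in CpG-poor DNA, with a median CpG ratio of 0.119 and 0.115 and a median gap of 17.2 and 22.6 kb to GR or LSD1. Olfr769 and Olfr726 were highest, with fold enrichments of 4.57 and 4.55, and Vmn1r194 and Vmn1r46 led the vomeronasal genes with 4.08 and 3.94.

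Other tissue-restricted lists ranged from below the background of 12.5% to close to it. Keratin and keratin-associated genes had a free peak at 6 of 110 genes (5.45%, 2.03 to 11.5%), among them Krt9 and Krt15, defensins at 3 of 71 (4.23%, 0.880 to 11.9%), such as Defb45, and germline genes at 1 of 30 (3.33%, 0.0844 to 17.2%), the spermatid bridge gene Tex14. The peak at Tex14 also lay in the window of Rad51c, whose TSS was the nearer one, with the midpoint 111 bp upstream of it. Chemokine, interleukin and interferon genes had a free peak at 10 of 91 (11%, 5.40 to 19.3%), with the eosinophil chemokine gene Ccl24 highest (4.17), followed by Ccl25 (4.06), Il17c (3.95) and Ifna9 (3.81). None of these 4 lists had a touched peak, beside 11.2% of all annotated genes. For germline genes the exact upper limit, 11.6%, includes that share. GR or LSD1 lay in a window of 2.73% of the keratin, 5.63% of the defensin, 13.3% of the germline and 12.1% of the chemokine list, against 40.9% of all genes. Clustered protocadherins, cell adhesion genes of neurons, had a free peak at 5 of 56 genes (8.93%, 2.96 to 19.6%), with Pcdha11 highest at 4.16. The intervals of the last 3 lists include the background.

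In several housekeeping groups most free peaks had GR or LSD1 elsewhere in the window. Cytosolic ribosomal protein genes had a free peak at 15 of 75 genes (20.0%, 11.6 to 30.8%), but only 1 of these had a window without GR or LSD1, and 72 of the 75 genes carried GR or LSD1, against 40.9% of all genes. At Rpl7a, 677 bp upstream, the gap was 37 bp, at Rps26 71 bp, at Rps3 408 bp and at Rpl23a 753 bp. Mitochondrial ribosomal protein genes had a free peak at 11 of 78 (14.1%, 7.26 to 23.8%) and proteasome genes at 10 of 51 (19.6%, 9.82 to 33.1%), with windows without GR or LSD1 at 3 and 2. Of all genes of these lists, 78.2% and 70.6% had GR or LSD1 in a window. The proteasome names include Psmg3, an assembly chaperone, and Psmc3ip, a recombination gene that shares the prefix. Psmb5, the chymotrypsin-like subunit, was an exception, with 2 peaks of 4.07 and 3.20 fold and the nearest GR or LSD1 peak 11.9 and 12.4 kb away. Respiratory chain genes had a free peak at 10 of 91 (11%, 5.40 to 19.3%), led by Ndufa10 with 3.71, and for 5 of these 10 the window was without GR or LSD1. Of this list, 75.8% had GR or LSD1 in a window. The intervals of all these housekeeping lists include the background of 12.5%.

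The study asked how GR and LSD1 act on muscle genes, so the genes tied to both proteins were counted too. Of 24 known glucocorticoid targets, 4 had a free peak (16.7%, 4.74 to 37.4%) and 23 had GR or LSD1 in a window, against 40.9% of all genes, and no free peak stood in a window without them. Klf15, a GR-driven metabolic regulator of muscle, had its free peak 792 bp upstream with a fold enrichment of 3.62, and the gaps were 1409 bp to GR fed, 380 bp to GR starved, 663 bp to LSD1 fed and 712 bp to LSD1 starved. At Nfkbia, the NF-κB inhibitor gene, the 4 gaps were 112, 20, 21 and 190 bp in that order. At Sesn1 and Cebpd the nearest were 364 and 312 bp away. Among 23 atrophy and autophagy genes the autophagy gene Atg5 alone had a free peak (3.25), and 19 had GR or LSD1 in a window.

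Among 20 genes of LSD1 and GR partners, 4 had a free peak (20.0%, 5.73 to 43.7%), among them Rcor1, Gse1 and Zmym3. Rcor1, which encodes CoREST, had all 4 lists within 118 to 177 bp. Of 20 H3K9 methyltransferase and demethylase genes, Kdm4c, Jmjd1c and Phf2 had a free peak (15.0%, 3.21 to 37.9%). The intervals of both lists include the background of 12.5%. Kdm4c had the highest value, 3.44 at 138 bp upstream, and a gap of 7.14 kb.

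Few muscle genes had a free peak, but the lists are short and each interval includes the background of 12.5%. None of the 12 muscle fibre marker genes had a free peak, for which the exact upper limit is 26.5%, while 3 (Acta1, Tnni2 and Mylpf) had a touched one. Of 33 sarcomere and fibre type genes the tropomyosin gene Tpm3 alone had a free peak, at 763 bp upstream with a fold enrichment of 3.39 (1 of 33 genes, 3.03%, 0.0767 to 15.8%). Of 14 myogenic factors Mef2c alone had one, with 2.89 (7.14%, 0.181 to 33.9%). Of 14 markers of other cells, Pdgfra and Apoa2 had one.

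Among small RNAs, 111 of 1190 microRNA genes, 2 host genes among the 111, had a free peak in the window of an annotated start (9.33%, 7.74 to 11.1%). For 16 of them a free peak lay at or downstream of that start, and for 90 of them the window was without GR or LSD1. Mir1958 (4.79), Mir5131 (4.50), Mir882 (4.38) and Mir1953 (4.35) were highest. The peak at Mir5131 also lay 448 bp upstream of the protein-coding gene Ddhd1, whose TSS was the nearer one, and 43 bp from an LSD1 starved peak. Small nucleolar RNA genes had a free peak at 19 of 115 (16.5%, 10.2 to 24.6%), led by Snora70 with 3.83. The interval lay below the background of 12.5% for microRNA genes and included it for small nucleolar RNA genes. Many such RNAs lie within host genes, so that their window need not be a promoter. Of 26 imprinted genes, 3 had a free peak (11.5%, 2.45 to 30.2%), an interval that includes the background of 12.5%. All 3 had it in windows without GR or LSD1, and 8 of the 26 genes had GR or LSD1 in a window (30.8%), against 40.9% of all genes. The 3 were Airn and Igf2r, which share a locus and are expressed from opposite parental chromosomes, with 4.71 and 3.47, and Cdkn1c with 3.42.

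The remaining lists met free peaks seldom, and none of these values is a test between conditions. An H3K9me2 starved peak overlapped 1 free peak (0.0299%, 0.000758 to 0.167%), against 0.293% of all H3K9me2 fed peaks and 4 touched peaks (0.148%, 0.0405 to 0.380%). That list holds 6624 peaks. At Kidins220, a neurotrophin signalling scaffold gene, the free peak had a fold enrichment of 3.11 and the starved peak at chr12:24974180-24974228 one of 4.07 (q = 0.0429), sharing 49 bp. Within 1000 bp of an H3K9me2 starved peak lay 10 free peaks.

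H3K9me1 fed peaks overlapped 13 free peaks (0.389%, 0.207 to 0.664%), beside 0.362% of all H3K9me2 fed peaks and 72 touched peaks (2.67%, 2.10 to 3.35%). H3K9me1 starved peaks overlapped 26 free peaks (0.778%, 0.509 to 1.14%), beside 0.765% of all H3K9me2 fed peaks and 57 touched peaks (2.12%, 1.61 to 2.73%). As selected, free peaks met H3K9me1 at about the level of all H3K9me2 fed peaks, and touched peaks met it more often than that level. Touched peaks were also longer, with a median of 169 bp against 112 bp for free and 92 bp for all peaks. A longer peak has more bases that can meet another, and length was not adjusted for. The level of the free peaks turned on which GR and LSD1 peaks counted. With only those of q of at most 0.01, H3K9me1 fed peaks overlapped 0.735% of the free peaks (0.503 to 1.04%) and H3K9me1 starved peaks 1.08% (0.794 to 1.43%), both above the level of all H3K9me2 fed peaks. The highest by fold enrichment were Smc2os, between the condensin gene Smc2 and its antisense transcript (4.17), Tmem69 (3.69) and Nob1 (3.34) for H3K9me1 fed, and Klhl8 (4.71), Plcb4 (4.58) and Slc10a5 (4.31) for H3K9me1 starved.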

How the data were processed

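The authors sequenced ChIP and input DNA as single-end reads of 50 bp, mapped unique reads to mm10 with Bowtie 1.1.2 (peak names in the deposited lists carry Bowtie2), removed blacklisted reads with list V2 of another species (hg38) and called peaks per library with MACS2 2.2.7.1 against input. The submitters' processing notes name bcl2fastq 2.20.0.422. The deposited lists give a fold enrichment over input (a ratio), −log10 p-value and q-value columns, and an integer score. The methods state an FDR filter of 0.01, yet the lists reach a q-value of 0.0998. Read numbers were not analysed here, so depth is unknown.

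Peaks were converted to 1-based coordinates and compared with 45756 RefSeq transcripts (NM and NR, GRCm38) in Python 3.11.15 with pandas 2.3.3, NumPy 2.4.6 and SciPy 1.17.1. Overlap and window code was tested on simulated intervals. Shares carry exact Clopper-Pearson 95% intervals. Repeat masking is lower case in the reference. RefSeq promoter sequences matched 2461 of the 3261 genes, and all 32851 of them served as the reference for motifs. With 1 library per group, no test was run. The free peaks and gene lists were chosen with earlier results of these data known. Named were the 6 highest folds, the 4 longest, genes with most free peaks, the top 3 overlapped by other lists, rule-edge peaks, and up to 4 genes per list by fold, and 8 alternative settings, and 1 chosen after seeing the data, were tried. Items withheld for evaluation are not reported here.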

Additional observations from a re-analysis of the deposited data

How the results depend on the processing

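Of 72 values under 9 alternatives, 35 stayed within the main interval (for the number of free peaks, within 1.5 times) and 37 did not; no direction was called. Keeping only H3K9me2 fed peaks with q of at most 0.01 left 687 free peaks, 50.8% of promoter peaks, 0% overlapped by H3K9me2 starved, 16.6% CpG-rich and 13.5% repeat-masked. A fold enrichment of at least 5 left 11, 57.9% of promoter peaks, 0% overlapped by each of the 3 other lists, 54.5% with GR or LSD1 elsewhere in the promoter, 9.09% CpG-rich and 27.3% repeat-masked. A window to 1 kb downstream gave 5738 free peaks, 62.5%, 49.0% with GR or LSD1 elsewhere, 17.0% CpG-rich and 9.31% repeat-masked. NM transcripts alone gave 53.2% free and 43.6% with GR or LSD1 elsewhere. Counting only GR and LSD1 peaks with q of at most 0.01 gave 72.2% free, 0.735% overlapped by H3K9me1 fed, 22.3% with GR or LSD1 elsewhere, 24.5% CpG-rich and 9.11% repeat-masked. Requiring 500 bp without GR or LSD1 left 2174, 36.0%, with 13.9% elsewhere, 12.3% CpG-rich and 12.6% repeat-masked. Requiring an empty window left 1961, 32.5%, with 0% elsewhere by construction. Counting as shared only at least 50% of the shorter peak gave 61.7% free and 18% CpG-rich. Leaving the LSD1 starved list uncounted, an alternative chosen after seeing the data, gave 57.3% free and 38.0% with GR or LSD1 elsewhere. No paired analysis was possible because each group has 1 library and no test was run. Depth is unknown, and a gap of a few bases to GR or LSD1 is no evidence that the protein is absent.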

Other observations

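Free peaks were few on the X chromosome, and so were the peaks of every deposited list. The X held 26 free peaks (0.778%) at 28 of 1126 annotated genes (2.49%, 1.66 to 3.57%), against 3232 of 24963 autosomal genes (12.9%, 12.5 to 13.4%). It makes up 6.18% of the sequenced bases of chromosomes 1 to 19, X and Y, and holds 0.700% of the H3K9me2 fed, 1.46% of the H3K9me2 starved, 0.817% and 0.871% of the H3K9me1 fed and starved, 0.696% and 0.500% of the GR, and 0.700% and 0.583% of the LSD1 peaks. The study worked with male mice, in which the X and the autosomes differ in copy number, and these shares were not adjusted for it. Of the X-linked free peaks, 22 lay in windows without GR or LSD1. The co-factor gene Zmym3 and the small nucleolar RNA gene Snora70 are among the genes named that lie there.

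Genes with only non-coding transcripts had a free peak less often, at 481 of 5180 (9.29%, 8.51 to 10.1%), than genes with a protein-coding one, at 2780 of 21000 (13.2%, 12.8 to 13.7%). Genes with GR or LSD1 in a window had a free peak, in that window or another of the gene, at 1516 of 10715 (14.1%, 13.5 to 14.8%), and genes without at 1745 of 15465 (11.3%, 10.8 to 11.8%).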
